A study of Homo sapiens with 16 samples.

Results

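PCNA, LIG1 and 8 of their partners in lagging strand DNA synthesis were followed through a PRO-seq series on LNCaP cells. The 10 genes were taken by name (PCNA, LIG1, FEN1, POLD1, POLD2, POLD3, POLD4, RFC1, PCLAF and DNA2) from 60605 Ensembl identifiers, and all 10 were found by symbol and passed the filter on low counts in every comparison. The list was chosen by pathway and by measured values, since PCNA and LIG1 were known to be higher after irradiation in these samples. The responses of the 10 genes to irradiation are therefore given as a description, without a test. Enzalutamide, its interaction with irradiation and the difference between batches were not themselves used in the choice, and were tested. The interaction and the batch difference are differences between irradiation responses. For PCNA and LIG1 they are thus not independent of the choice.

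PCNA is a ring-shaped clamp that slides along DNA and holds polymerases and other enzymes at the growing strand. On the lagging strand, DNA is made in short Okazaki fragments. A clamp loader (with RFC1 as its large subunit) places PCNA at each primer, polymerase delta (POLD1 to POLD4) extends the fragment, the nucleases FEN1 and DNA2 trim the flap that carries the old primer, and DNA ligase 1 (LIG1) seals the nick. PCLAF is a small protein that binds inside the PCNA ring. PCNA and LIG1 also serve in DNA repair synthesis, and PCNA is a known target of the tumour suppressor p53.

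PRO-seq is a nuclear run-on assay that maps RNA polymerases engaged in transcription, so the values below are nascent transcription and not the amount of mRNA or protein. LNCaP is an established human prostate cancer cell line with wild-type p53, grown here in medium with serum, so all groups share a single line and its genotype. Batch 2 held 4 groups: DMSO vehicle for 90 min, DMSO with 6 Gy of ionizing radiation (IR) after 30 min and 60 min of further incubation, 10 µM enzalutamide for 90 min, and enzalutamide with 6 Gy on the same schedule. Enzalutamide is a drug used against prostate cancer. Batch 1 held mock-treated cells and cells given 6 Gy, with no enzalutamide, and its time after IR is not given in the labels. Each of the 6 groups had 2 replicates, numbered 1 and 2 in batch 1 and 3 and 4 in batch 2. Batch 1 had 2 libraries, named t1 and t2, for each replicate number, which were summed. Neither the meaning of t1 and t2 nor whether the replicates were separate cultures is stated in the labels, so p-values measure the spread between these samples, which may be technical.

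Libraries held 3438642 to 9363458 counts in batch 1 (8022989 to 16851473 after summing) and 10494563 to 19905824 in batch 2. Levels are given as CPM, the counts of a gene relative to the TMM-scaled size of the library, with the SD between replicates, and fold changes are from edgeR's quasi-likelihood model over all genes. All 9 LNCaP markers had counts in each sample, with FOLH1 the highest, between 952 and 1382 CPM. KLK3 was the lowest, between 5.24 and 179 CPM with a median of 12.8 CPM, under the CD68 median of 54.3 CPM. The summed level of 8 basal, stromal and immune markers was 69.5 to 82.4 CPM over the 12 samples, of which CD68 made up 44.0 to 64.3 CPM, while KRT5 and PTPRC stayed under 1 CPM. As a check of the irradiation labels, CDKN1A, the p53-induced cell cycle inhibitor, was at 44.6 CPM in mock, 565 CPM in irradiated batch 1, 40.4 CPM in vehicle and 331 CPM in irradiated vehicle cells. In bulk samples, fewer transcribing cells and less transcription per cell cannot be told apart.

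The promoters are shown first, because PCNA and LIG1 were both higher after IR and are set below beside partners with smaller differences. RefSeq (GRCh38.p14) gave 12 promoters for 8 of the 10 genes, each from 250 bases before to 50 bases after a start site. POLD3 and DNA2 were not in that table. The motifs searched, on both strands, were the E2F sites TTTCCCGC, TTTGGCGC and TTTCGCGC, the CCAAT box CCAAT, the p53 half-site, and, not capitalised below, the GC box GGGCGG and the cAMP response element core TGACGTCA. In the sequences below, written 5′ to 3′ on the gene's strand, capitals mark matches to an E2F site, a CCAAT box or a p53 half-site on either strand. The first PCNA start lies in chr20:5126573-5126872 (minus strand), the second PCNA start in chr20:5119909-5120208 (minus strand), LIG1 in chr19:48170295-48170594 (minus strand) and the second PCLAF start in chr15:64381392-64381691 (minus strand).
PCNA start 1: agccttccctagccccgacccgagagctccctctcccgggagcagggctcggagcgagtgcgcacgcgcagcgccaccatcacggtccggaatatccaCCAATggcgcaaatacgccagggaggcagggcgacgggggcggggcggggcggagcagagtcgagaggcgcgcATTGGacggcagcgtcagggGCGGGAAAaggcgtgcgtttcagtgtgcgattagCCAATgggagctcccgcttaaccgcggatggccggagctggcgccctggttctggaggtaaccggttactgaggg
PCNA start 2: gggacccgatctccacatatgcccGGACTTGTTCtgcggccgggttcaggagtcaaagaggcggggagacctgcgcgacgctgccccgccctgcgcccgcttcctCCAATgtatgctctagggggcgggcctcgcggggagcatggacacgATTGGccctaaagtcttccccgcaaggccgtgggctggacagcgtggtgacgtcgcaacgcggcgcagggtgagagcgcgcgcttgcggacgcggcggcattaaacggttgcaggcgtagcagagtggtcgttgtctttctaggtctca
LIG1: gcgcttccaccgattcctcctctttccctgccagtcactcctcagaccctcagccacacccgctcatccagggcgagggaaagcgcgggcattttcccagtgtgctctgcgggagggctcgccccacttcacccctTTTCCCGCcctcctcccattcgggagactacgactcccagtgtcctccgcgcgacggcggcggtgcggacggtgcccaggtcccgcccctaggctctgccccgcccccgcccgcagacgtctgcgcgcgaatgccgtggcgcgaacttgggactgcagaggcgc
PCLAF start 2: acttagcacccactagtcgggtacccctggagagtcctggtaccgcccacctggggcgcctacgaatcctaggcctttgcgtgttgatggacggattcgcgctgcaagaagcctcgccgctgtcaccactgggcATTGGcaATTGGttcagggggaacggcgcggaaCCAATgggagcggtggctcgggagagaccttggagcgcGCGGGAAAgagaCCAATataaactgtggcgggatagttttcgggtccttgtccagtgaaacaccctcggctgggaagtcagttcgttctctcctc

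The E2F sequence TTTCCCGC was found in the first PCNA promoter (positions -59 to -52, where the first transcribed base is 0, on the opposite strand), in LIG1 (-114 to -107) and in the second PCLAF promoter (-45 to -38, opposite strand). It occurred in 1.63% of 35116 RefSeq promoters of the same length. In PCNA and LIG1 it overlapped a GC box, a motif found in 45% of promoters. CCAAT boxes, present in 34.6% of promoters, were matched 3 times in the first PCNA promoter, 2 times in the second and 4 times in the second PCLAF promoter. They were also matched 3 times in each of the POLD4 promoters, 2 times in POLD2 and 1 time in RFC1, and not in LIG1, FEN1 or POLD1. A p53 half-site, present in 6.63% of promoters, was matched in the second PCNA promoter (GGACTTGTTC, -226 to -217) and in the first PCLAF promoter (GGACTAGTTC, -127 to -118). The cAMP response element core, present in 1.85% of promoters, was matched in RFC1 (-23 to -16). FEN1, POLD1, POLD2, POLD4 and RFC1 had no E2F or p53 match in this window. A match describes letters only, and no match says nothing about a factor.

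PCNA and LIG1 were higher after 6 Gy in each of the 3 comparisons of irradiated with unirradiated cells, by 1.74- to 1.95-fold. PCNA, the sliding clamp itself (chr20:5114953-5126622, GRCh38.p14), was at 44.3 and 46.4 CPM in vehicle and at 91.6 and 73.9 CPM in irradiated vehicle cells. With enzalutamide it was at 46.9 and 43.5 CPM without IR and at 76.6 and 81.9 CPM with IR. In batch 1 it was at 184 and 122 CPM in mock and at 277 and 279 CPM in irradiated cells. Both irradiated samples lay above both controls in each comparison, and the mock replicates were further apart than those of any other group. The log2 fold change of PCNA was 0.86 (SE 0.103, 95% interval 0.64 to 1.08) in vehicle cells, 0.80 (SE 0.104, 0.57 to 1.02) in enzalutamide cells and 0.84 (SE 0.172, 0.47 to 1.22) in batch 1. Without mock replicate 1 the batch 1 value was 1.17, and without mock replicate 2 it was 0.58.

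LIG1, the ligase that joins Okazaki fragments (chr19:48115445-48170344), was at 42.0 and 44.4 CPM in vehicle and at 84.1 and 78.6 CPM in irradiated vehicle cells. With enzalutamide it was at 47.4 and 46.6 CPM without IR and at 85.2 and 82.7 CPM with IR. In batch 1 it was at 34.1 and 32.4 CPM in mock and at 66.9 and 64.0 CPM in irradiated cells. The irradiated and unirradiated samples did not overlap in either batch, and the largest SD between its replicates was 3.83 CPM, against 43.9 CPM for PCNA. Its log2 fold change was 0.90 (SE 0.0858, 95% interval 0.72 to 1.09) in vehicle cells, 0.83 (SE 0.0863, 0.64 to 1.01) in enzalutamide cells and 0.96 (SE 0.105, 0.73 to 1.19) in batch 1.

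**Figure D1:**
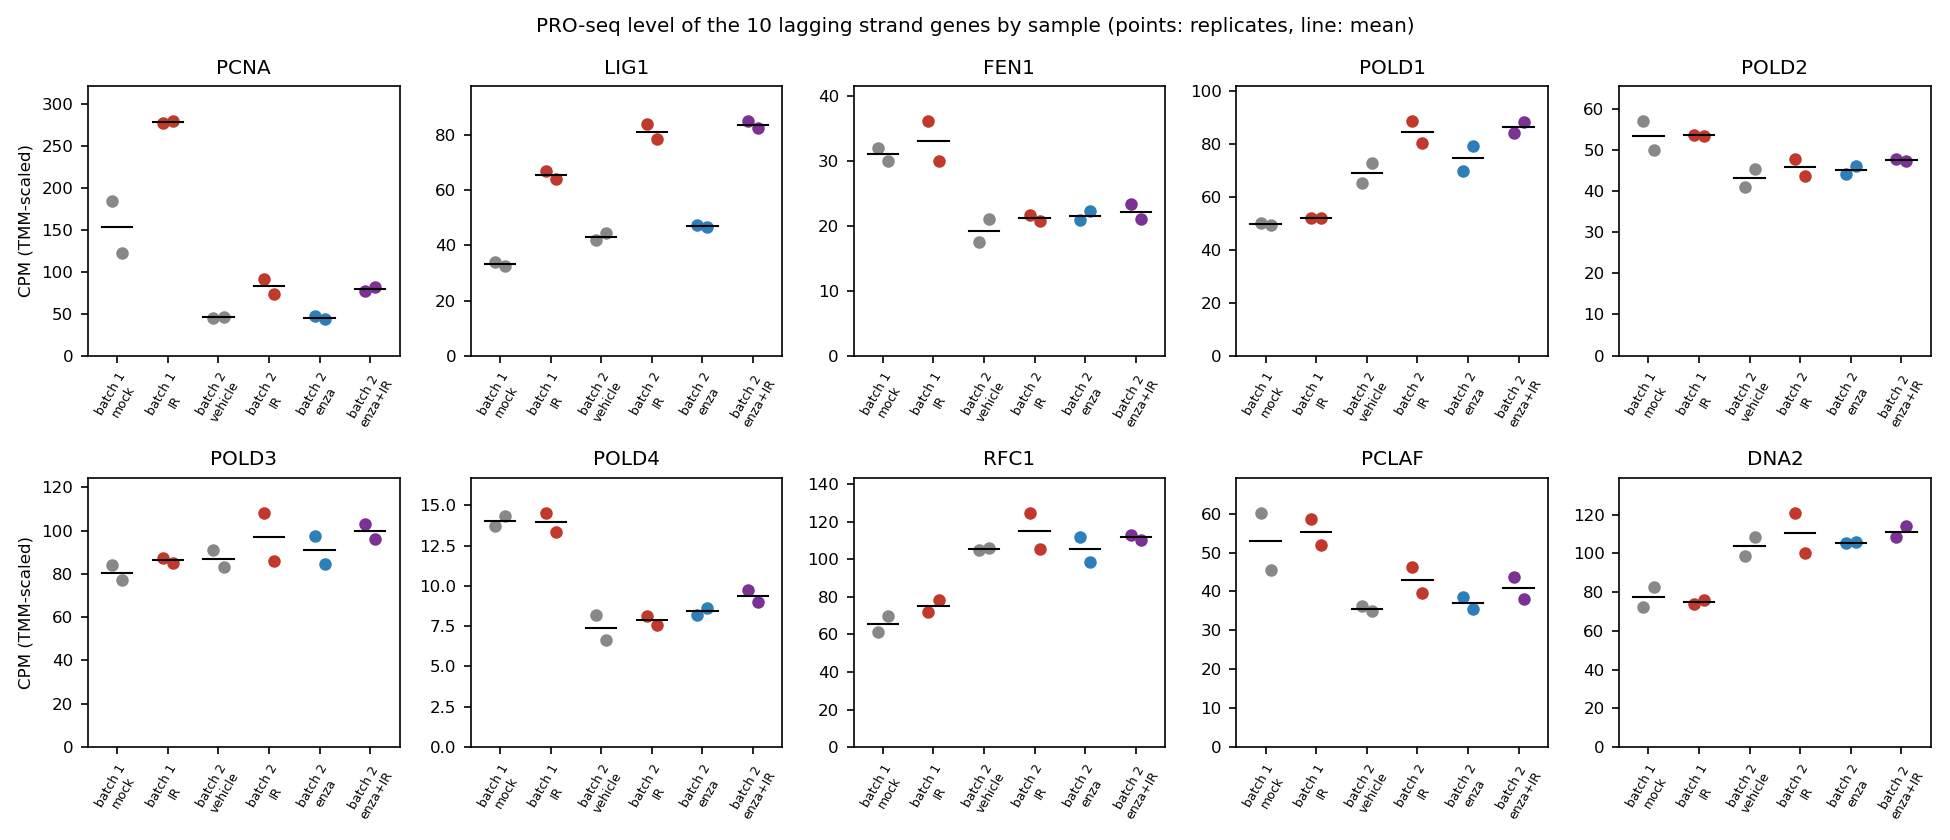
PRO-seq level (CPM, TMM-scaled, linear axis from 0) of each of the 10 genes in the 12 samples of 6 groups, with 1 point per replicate and a line at the group mean. PCNA and LIG1 are higher in the irradiated group of each pair, for example LIG1 at 43.2 CPM in vehicle and 81.3 CPM in irradiated vehicle cells, while the other 8 genes show smaller differences.

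The other 8 genes had smaller values. FEN1, the flap nuclease (chr11:61792911-61797238), was at 19.3 ± 2.5 CPM (SD, n = 2) in vehicle and 21.2 ± 0.634 CPM (SD, n = 2) after IR, and DNA2, the nuclease and helicase that cuts long flaps (chr10:68414064-68472521), was at 104 ± 7.02 and 111 ± 14.8 CPM. RFC1, the large subunit of the clamp loader (chr4:39287456-39366362), was at 106 ± 0.478 CPM in vehicle and 115 ± 13.7 CPM after IR. In batch 1, FEN1 went from 31.0 ± 1.44 to 33.1 ± 4.39 CPM, DNA2 from 77.7 ± 7.31 to 74.8 ± 1.72 CPM and RFC1 from 65.7 ± 6.11 to 75.2 ± 4.49 CPM. The 95% intervals of these 3 genes included no change in all 3 comparisons, with log2 fold changes between -0.07 (DNA2, batch 1) and 0.18 (RFC1, batch 1).

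Of the 4 subunits of polymerase delta, the catalytic subunit POLD1 (chr19:50384323-50418018) had the largest value in both comparisons of batch 2, and POLD3 in batch 1 (0.09). It was at 65.2 and 72.8 CPM in vehicle, 88.7 and 80.5 CPM in irradiated vehicle cells, 69.8 and 79.5 CPM with enzalutamide, and 84.1 and 88.6 CPM with enzalutamide and IR. In batch 1 it was at 50.1 and 49.4 CPM in mock and at 52.0 and 52.3 CPM in irradiated cells. Irradiated samples lay above their controls in each comparison, by a small margin in batch 1. There its log2 fold change was -0.14 in t1 libraries alone and 0.34 in t2 alone. The log2 fold change was 0.29 (SE 0.0969, 95% interval 0.08 to 0.50) in vehicle, 0.20 (SE 0.0975, -0.01 to 0.42) in enzalutamide cells and 0.05 (SE 0.1, -0.16 to 0.27) in batch 1. The accessory subunits POLD2 (chr7:44114680-44124325), POLD3 (chr11:74592582-74669341) and POLD4 (chr11:67350765-67353596) had log2 fold changes between -0.03 and 0.15, and each of their intervals included 0.

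PCLAF, the PCNA-associated factor (chr15:64364304-64387687), was at 36.1 and 34.9 CPM in vehicle and at 46.2 and 39.5 CPM after IR, with a log2 fold change of 0.26 (SE 0.110, 95% interval 0.02 to 0.50). With enzalutamide it was at 38.7 and 35.4 CPM without IR and at 43.8 and 38.0 CPM with IR, and the ranges overlapped. In batch 1 it was at 60.2 and 45.4 CPM in mock and at 58.7 and 51.8 CPM after IR, where the ranges also overlapped (log2 fold change 0.05, SE 0.134).

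**Figure D2:**
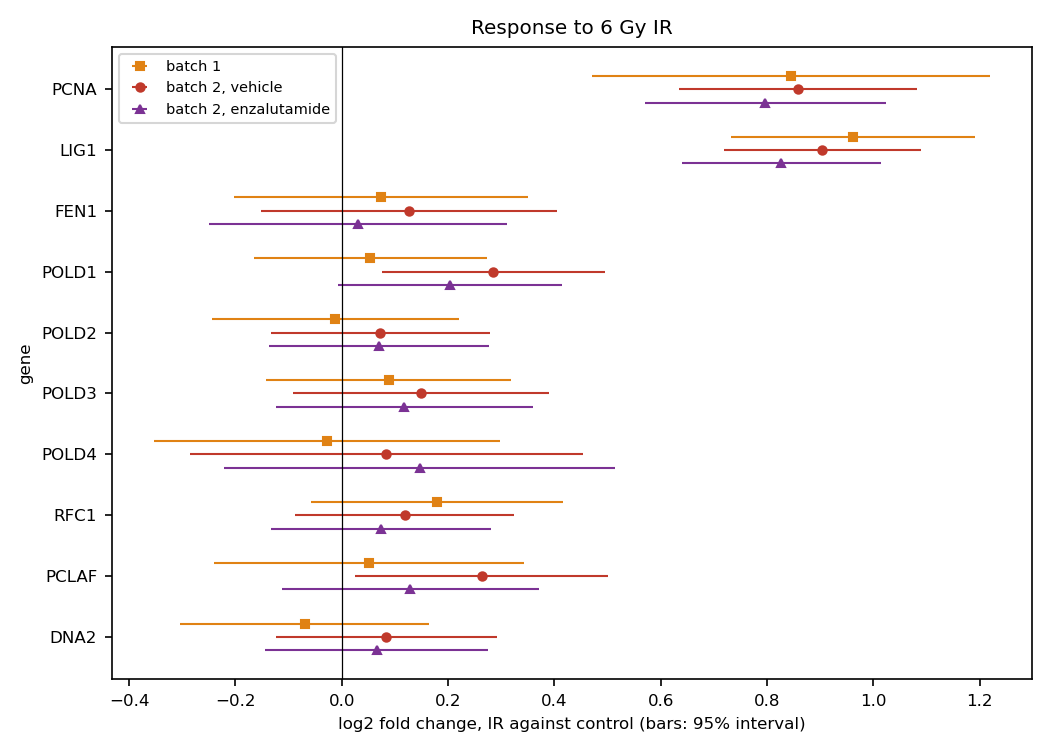
Log2 fold change of each gene after 6 Gy (horizontal axis) in batch 1 (squares), batch 2 vehicle cells (circles) and batch 2 enzalutamide cells (triangles), with 95% intervals of the edgeR model. PCNA and LIG1 lie between 0.80 and 0.96, and the other 8 genes between -0.07 and 0.29.

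As a list, 2 of the 10 genes passed an adjusted p of 0.05 in the fit across all genes in each of the 3 comparisons, both of them higher, where 1.1% of 28651 genes passed in vehicle cells, 0.918% in enzalutamide cells and 2.82% of 25889 genes in batch 1. Higher calls alone were 0.743%, 0.625% and 2% of genes. With the replicate block POLD1 (0.29) also passed in vehicle cells, where 4.59% of all genes passed. PCNA and LIG1 are the genes that the choice rested on, so nothing is read from these counts. The median log2 fold change of the 10 genes was 0.14 in vehicle, 0.12 in enzalutamide cells and 0.06 in batch 1, with 10, 10 and 7 genes above 0. Without PCNA and LIG1 the medians were 0.12, 0.10 and 0.05, with 8, 8 and 5 of 8 genes above 0. Over all genes tested the medians were -0.01, -0.01 and -0.00, with 49.1%, 47.4% and 49.6% of genes above 0. Both irradiated samples lay above both controls for 4 of the 10 in vehicle cells (PCNA, LIG1, POLD1 and PCLAF), 6 in enzalutamide cells (PCNA, LIG1, POLD1, POLD2, POLD4 and DNA2) and 5 in batch 1 (PCNA, LIG1, POLD1, POLD3 and RFC1). The same held for 22.1%, 19.8% and 22% of all genes. Both irradiated samples lay below both controls for 0 of the 10, against 22.2%, 18.5% and 18% of all genes. The counts of genes above their controls include PCNA and LIG1, which the choice rested on, so nothing is read from them. In batch 1, POLD1, POLD3 and RFC1 had log2 fold changes of -0.14, -0.03 and -0.11 in t1 libraries alone. In t2 alone they were 0.34, 0.24 and 0.54.

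The batches were compared for the size of the response, though whether batch 1 was taken at the same time after IR is not known. The difference between the response in batch 1 and that in vehicle cells of batch 2 was -0.04 for PCNA (95% interval -0.47 to 0.40) and 0.03 for LIG1 (-0.26 to 0.33) on the log2 scale. It passed the threshold for 0 of the 10 genes by edgeR (background 0.106% of 29195 genes, 1651 genes at an unadjusted p under 0.05), and for 0 of the 10 at an unadjusted p under 0.05. The lowest value was that of POLD1, at -0.26 (SE 0.141, edgeR adjusted p 0.896). With t2 libraries alone for batch 1, RFC1 passed at 0.42, where 20.3% of all genes passed.

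Levels without irradiation differed between the batches, among the 10 genes most of all for PCNA. Mean PCNA transcription was 153 ± 43.9 CPM (SD, n = 2) in mock and 45.4 ± 1.49 CPM (SD, n = 2) in vehicle cells, a ratio of 3.38, and 2.24% of 25370 genes had a higher ratio. The ratio was 1.896 for POLD4, 1.61 for FEN1, 1.49 for PCLAF and 1.24 for POLD2. It was 0.924 for POLD3, 0.77 for LIG1, 0.75 for DNA2, 0.72 for POLD1 and 0.622 for RFC1. Mock was higher than vehicle in the genes with spans of 2.83 to 23.4 kb, and lower in those of 33.7 to 78.9 kb. The part of gene length in these ratios was not tested. Batch, and mock against DMSO vehicle, cannot be told apart here, so these ratios carry no test.

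The t1 and t2 libraries of batch 1 gave different responses. PCNA in t1 was at 197 and 103 CPM in mock and 310 and 385 CPM after IR, a log2 fold change of 1.17 (SE 0.241). In t2 it was at 176 and 152 CPM in mock and 224 and 195 CPM after IR, a log2 fold change of 0.41 (SE 0.126). LIG1 went from 39.1 and 36.2 to 65.4 and 71.3 CPM in t1 (0.81, SE 0.147) and from 30.5 and 26.7 to 69.1 and 58.0 CPM in t2 (1.18, SE 0.128). PCNA and LIG1 were thus higher after IR in both kinds of library, PCNA more so in t1 and LIG1 more so in t2. The other 8 genes had values of opposite sign in t1 and t2. POLD4 had a log2 fold change of 0.74 (SE 0.225) in t1 and -0.77 (SE 0.241) in t2, and DNA2 of -0.41 (SE 0.148) in t1 and 0.33 (SE 0.105) in t2. FEN1 (0.38 and -0.28), POLD2 (0.25 and -0.29) and PCLAF (0.19 and -0.09) were higher in t1, while RFC1 (-0.11 and 0.54), POLD1 (-0.14 and 0.34) and POLD3 (-0.03 and 0.24) were higher in t2.

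The sign of the t1 minus t2 difference followed gene length. It was positive in the 5 shortest genes (POLD4, FEN1, POLD2, PCNA and PCLAF, with spans of 2.83 to 23.4 kb) and negative in the 5 longest (POLD1, LIG1, DNA2, POLD3 and RFC1, 33.7 to 78.9 kb). Spearman's rho between span and the difference was -0.855 over the 10 genes, which share the same 8 libraries, and is given as a description. The part of length or of the t1 and t2 libraries in the summed values was not tested, and batch 2 has no such libraries. Of all genes, 17.3% of 23134 passed by edgeR in t1 alone and 44.7% of 21930 in t2 alone. The values of the 10 genes in t1 and t2 are given without a test, as the choice rested on this response.

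**Figure D3:**
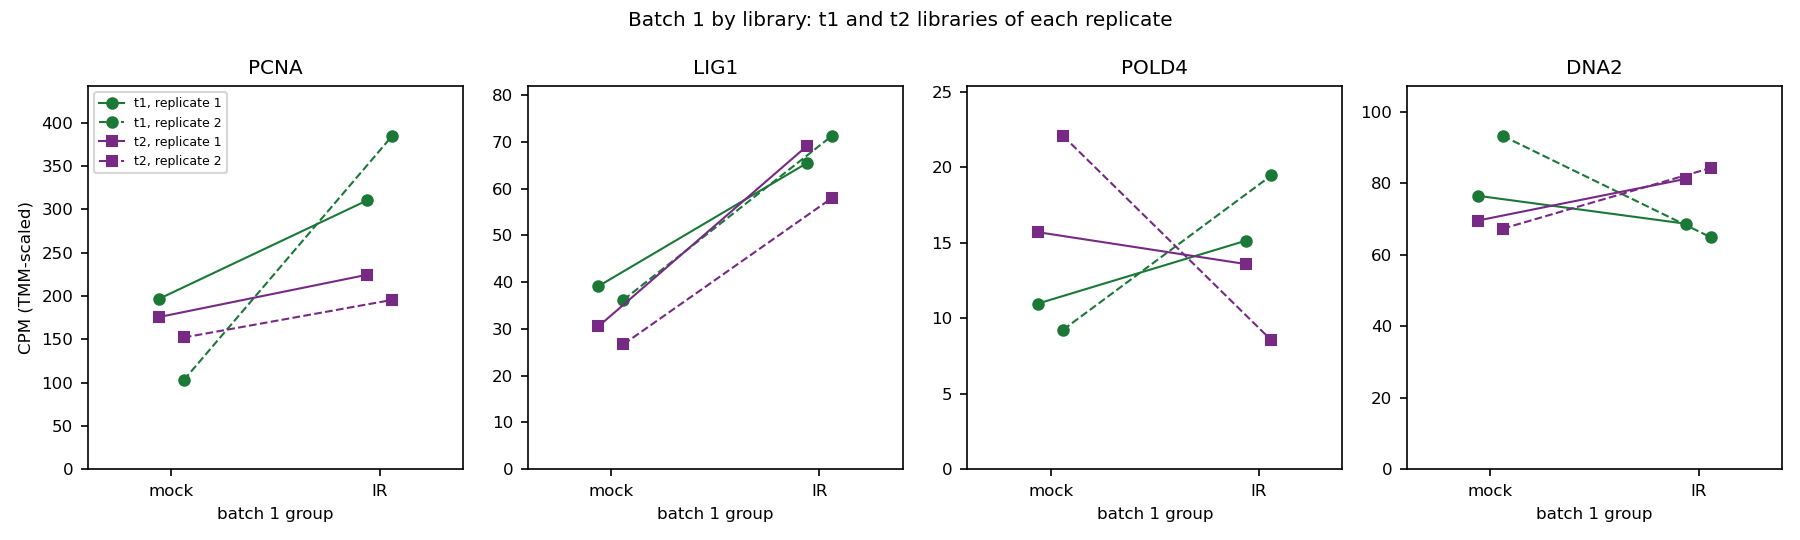
Level (CPM, TMM-scaled, linear axis from 0) of 4 genes in the 8 single libraries of batch 1, with lines joining mock and irradiated libraries of the same replicate number and kind (green circles t1, purple squares t2). PCNA and LIG1 are higher after IR along all 4 lines, whereas POLD4 and DNA2 run in opposite directions in t1 and t2.

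Enzalutamide left no called change in any of the 10 genes. Averaged over irradiation (4 samples with the drug against 4 without), 0 of 10 passed by edgeR and 0 of 10 had an unadjusted p under 0.05, where 0.0628% of 28651 genes passed (18 genes, all lower) and 1780 had an unadjusted p under 0.05. PCNA had a log2 fold change of -0.03 (SE 0.0678, 95% interval -0.18 to 0.12) and LIG1 of 0.08 (SE 0.0556, -0.04 to 0.20). The largest value was that of POLD4, the smallest subunit of polymerase delta, at 0.22 (SE 0.111, -0.02 to 0.46, edgeR adjusted p 0.83, and 0.447 to 0.998 over the alternatives). POLD4 was at 8.17 and 6.65 CPM in vehicle and 8.19 and 8.63 CPM with enzalutamide, and at 8.14 and 7.59 CPM with IR and 9.74 and 8.97 CPM with both, higher with the drug in both pairs of groups without overlap. The remaining 7 genes lay between -0.02 and 0.11, and the widest interval of any of the 10 reached 0.24 to either side of its value. The 10 genes together had a median of 0.06 against 0.00 over all genes, with 8 of 10 and 50.2% of genes above 0.

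In the separate comparisons, 0 of 10 genes passed without IR (log2 fold changes between 0.00 and 0.19) and 0 of 10 with IR (between -0.07 and 0.25), against a background of 0.0105% of genes in each, and at an unadjusted p under 0.05 the counts were 0 of 10 both times (734 and 859 genes overall). Both drug samples lay above both controls for LIG1 and POLD4 without IR (13.5% of all genes) and for POLD4 with IR (15.8%).

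The response to IR was also compared between enzalutamide and vehicle cells. The interaction was -0.06 for PCNA (95% interval -0.38 to 0.26) and -0.08 for LIG1 (-0.34 to 0.19) on the log2 scale. By edgeR 0 of 10 genes passed, with 0% of 28651 genes in the background and 343 at an unadjusted p under 0.05 (0 of the 10). Values ranged from -0.13 (PCLAF) to 0.06 (POLD4). The intervals of PCNA and LIG1 leave room for a response under enzalutamide from 0.77- to 1.19-fold and from 0.791- to 1.14-fold of that in vehicle cells.

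**Figure D4:**
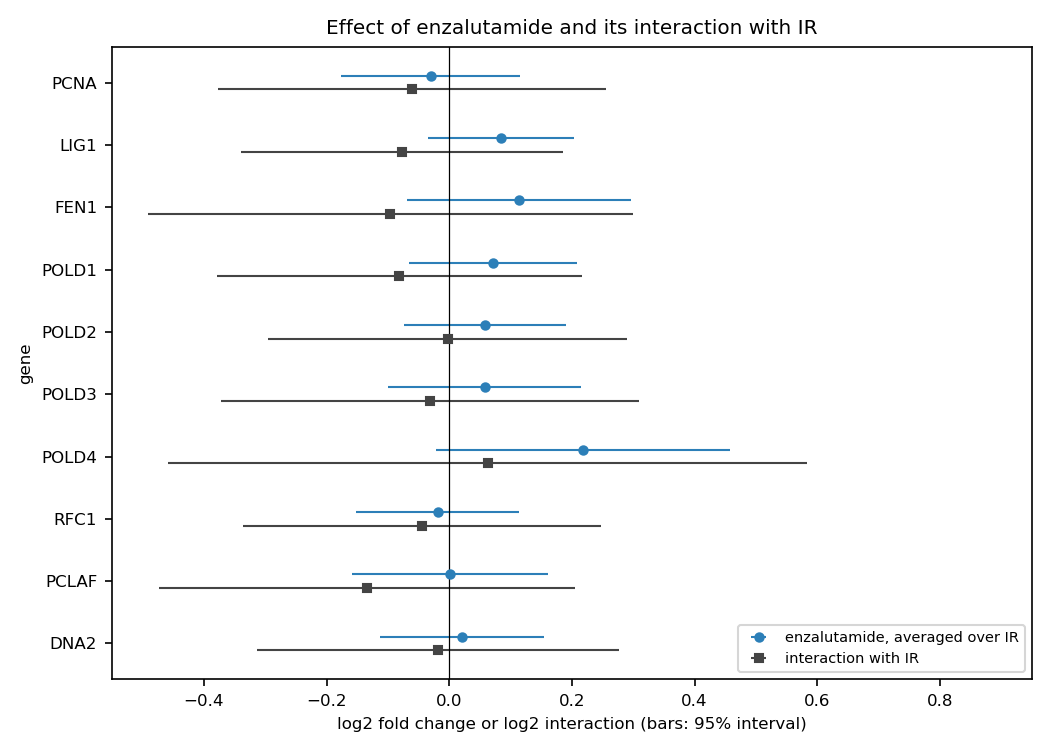
Log2 fold change of each gene with enzalutamide, averaged over irradiation (blue circles), and its interaction with 6 Gy (dark squares), with 95% intervals. All 20 intervals cross 0, and POLD4 has the largest enzalutamide value, at 0.22.

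Between genes, levels were compared only per length. The region counted for each gene is not given, so the span may differ from the length that was counted. The shortest genes, POLD4, FEN1, POLD2 and PCNA (2.83 to 11.7 kb), held the top places in each group. The part of span in this order was not tested. On the scale of CPM per kb of RefSeq gene span, vehicle cells had POLD2 (4.48 ± 0.329, SD, n = 2) and FEN1 (4.46 ± 0.577) at the top with overlapping ranges, followed by PCNA (3.89 ± 0.128), POLD4 (2.61), POLD1 (2.05), DNA2 (1.77), PCLAF (1.52), RFC1 (1.34), POLD3 (1.13) and LIG1 (0.787 ± 0.0308). Apart from POLD2 and FEN1, no neighbours in that order overlapped. After IR, PCNA stood first at 7.09 ± 1.07 CPM per kb, and LIG1, at 1.48 ± 0.0697, moved from the tenth place to the eighth, where its range overlapped that of RFC1. In batch 1 PCNA was first in mock (13.1 ± 3.76) and after IR (23.8 ± 0.116), ahead of FEN1 (7.17 and 7.64). LIG1 was last in mock (0.606 ± 0.0225) and eighth after IR (1.19 ± 0.0375).

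The wider machinery was described with 50 further genes in 8 lists, all of which were tested. The lists were chosen with earlier results of these data known, so the counts and the adjusted p-values of listed genes are a description. After IR in vehicle cells, 3 of the 50 rose by edgeR and none fell, where 1.1% of all genes passed and 0.743% were higher. Without CDKN1A, which also served as the check of the irradiation labels, 2 of 49 rose. All 3 were among the 14 other PCNA-binding proteins: CDKN1A (log2 fold change 3.02, SE 0.174, adjusted p 5.5e-07), POLH, the translesion polymerase eta that PCNA recruits (1.34, SE 0.0911, adjusted p 2.57e-06), and CDT1, a licensing factor that is degraded on PCNA (0.56, SE 0.112, adjusted p 0.028). In enzalutamide cells, where 0.918% of all genes passed, CDKN1A (2.88) and POLH (1.24, SE 0.0917, adjusted p 6.7e-06) rose, and CDT1 had a value of 0.47 (adjusted p 0.104). In batch 1, where 2.82% of all genes passed, the same comparison called CDKN1A (3.65) and POLH (1.74, SE 0.127, adjusted p 4.9e-06), and CDT1 had a value of 0.16 (adjusted p 0.71).

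POLH was at 53.7 and 52.9 CPM in vehicle and 139 and 132 CPM after IR, and in batch 1 at 50.1 and 60.1 CPM in mock and 187 and 184 CPM after IR, with no overlap. CDT1 was at 31.3 and 39.7 CPM in vehicle and 52.0 and 53.5 CPM after IR. The CDT1 call was lost under scaling by total counts (0.53) and on leaving out vehicle replicate 3 (0.40), either irradiated vehicle replicate (0.60 and 0.52) or either replicate of enzalutamide with IR (0.56 each), with adjusted p-values of 1.4e-04 to 0.468 over the alternatives. In enzalutamide cells CDT1 passed with the replicate block (0.46) and without the filter on low counts (0.48). In batch 1 its value was 0.56 in t1, which passed, and -0.25 in t2.

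Under the main settings, no gene of the remaining lists passed in any of the 3 IR comparisons. These lists held primase and polymerase alpha, which lay the primers, listed with WDHD1 (5 genes), and the other clamp loaders and unloaders (8). They also held the single-strand binding protein RPA (3), RNase H (4) and polymerase epsilon, the leading strand polymerase (4). The last were other DNA ligases, listed with XRCC1 (3), and the PCNA ubiquitin cycle (9). In vehicle cells the medians of these lists lay between 0.02 (other ligases) and 0.15 (primase and polymerase alpha). All 50 genes had a median of 0.11 in vehicle, 0.06 in enzalutamide cells and 0.06 in batch 1, with 40, 32 and 34 of them above 0. With the replicate block, 6 of the 50 passed in vehicle cells, where 4.59% of all genes passed against 1.1% without it. The added ones were RFC2 (0.31), CHTF18 (0.32), both parts of clamp loaders, and CHAF1A (0.26), a chromatin assembly subunit that binds PCNA. In batch 1 the block added POLA1 (0.24, edgeR adjusted p 0.0437), where 2332 of 25889 genes passed against 731 without it.

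Enzalutamide, averaged over IR, changed 0 of the 50 by edgeR (0.0628% of all genes), and 2 had an unadjusted p under 0.05. With the replicate block 1 passed, CHTF18 at 0.22, and 0.949% of all genes passed. The difference between batches passed for 0 of the 50 (3 had an unadjusted p under 0.05) and for 0.106% of all genes. Once the block was added it passed for CDKN1A (0.60) and for 0.329% of all genes.

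**Figure D5:**
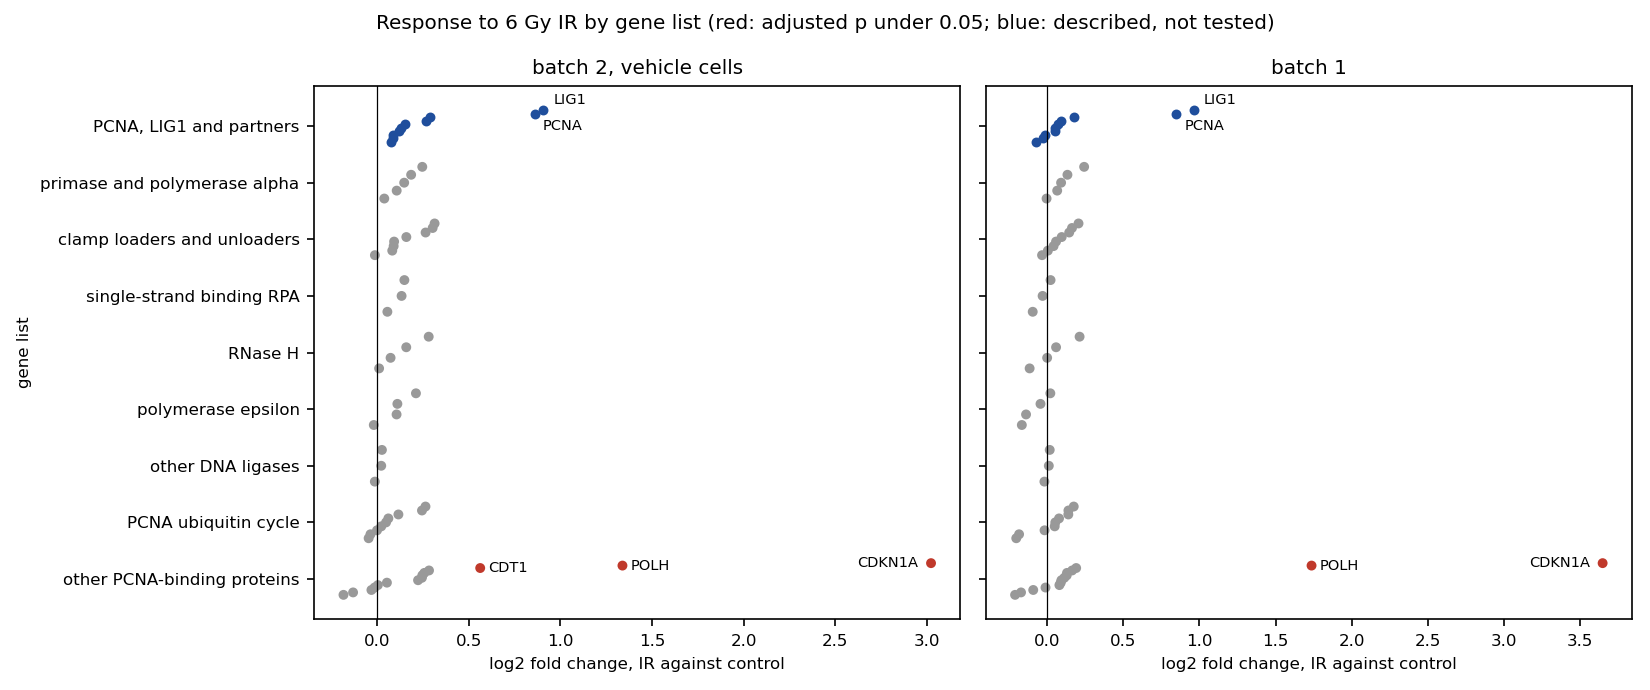
Log2 fold change after 6 Gy (horizontal axis) of PCNA, LIG1 and their partners (blue, not tested) and of 50 further genes by list, in batch 2 vehicle cells (left) and batch 1 (right), with genes past an adjusted p of 0.05 in red. CDKN1A (3.02 and 3.65) and POLH (1.34 and 1.74) lie to the right of PCNA and LIG1, and CDT1 (0.56) is red in vehicle cells only.

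Neighbouring genes were measured because the use of strand in counting is not given. CDS2 starts 386 bp from PCNA on its upper side and had log2 fold changes after IR of 0.22, 0.17 and 0.25 in vehicle cells, enzalutamide cells and batch 1 (edgeR adjusted p 0.415, 0.61 and 0.369). TMEM230, 1877 bp away on the other side, had 0.28, 0.12 and 0.26 (adjusted p 0.361, 0.785 and 0.335). ZSWIM9, 336 bp from LIG1, had 0.28, 0.27 and 0.30 (adjusted p 0.409, 0.503 and 0.498), and PLA2G4C, 4628 bp away, was at 4.90 ± 0.634 CPM in vehicle and 4.89 ± 0.305 CPM after IR (SD, n = 2). None of the 4 passed in an IR comparison. PCNA-AS1 and a snoRNA overlap PCNA and LIG1-AS1 overlaps LIG1, these 3 were not matched by symbol in the counts, and reads from the antisense genes cannot be told apart from those of PCNA and LIG1 without strand. The pseudogenes PCNAP1, PCNAP3, PCNAP4, FEN1P1 and POLD2P1 held at most 10 counts in any sample.

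Over the 12 samples, centred on the batch mean, the log2 CPM of LIG1 was most like that of FDXR (Pearson's r 0.997), NINJ1 (0.996), SESN2 (0.996), DDB2 (0.994) and PHLDA3 (0.993), among 18685 genes with a mean of at least 50 counts. These 5 genes had log2 fold changes after IR of 1.79 (SESN2) to 2.85 (FDXR) in vehicle cells, where LIG1 had 0.90. PCNA was most like ZNF219 (0.978), TYMS (0.973), MPP3 (0.971), ZNF30 (0.970) and ENSG00000285528 (0.969). TYMS, which makes thymidylate for DNA synthesis, had a log2 fold change of 0.99 (SE 0.0996) in vehicle cells, 0.98 in enzalutamide cells and 1.19 in batch 1, and ENSG00000285528 had 0.78, 0.72 and 0.98. ZNF219, MPP3 and ZNF30 had values of 0.23 to 0.36. All 10 were picked for likeness over these same samples, so their values after IR carry no test. LIG1 ranked 26th for PCNA (r 0.958), and PCNA ranked 138th for LIG1. The r values of the other 8 genes with PCNA ran from 0.180 (DNA2) to 0.750 (POLD1), and with LIG1 from 0.226 (DNA2) to 0.775 (POLD1). These correlations are descriptions over samples that fall into irradiated and unirradiated groups.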

How the data were processed

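For each batch the authors deposited a table of unnormalized PRO-seq counts by Ensembl identifier, judged to be counts from whole numbers with unequal library totals. Per the submitters' processing notes, cutadapt 1.8.1, Bowtie2 2.4.4 and SAMtools 1.9 were used with build hg38. The counting tool, the annotation, the use of strand and any removal of duplicates are not given in the sources used here. Of 60605 identifiers, 60463 (99.8%) matched a gene name. Gene spans, neighbours and promoters came from RefSeq GRCh38.p14.

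The t1 and t2 libraries of a replicate were summed. Counts were tested with edgeR 4.0.16 in R 4.3.3 (filterByExpr, TMM, glmQLFit and glmQLFTest, two-sided, Benjamini-Hochberg adjustment over all genes tested, threshold 0.05). Batch 2 was fitted as 4 groups (8 samples), batch 1 alone, the enzalutamide average without interaction, and the batch difference on the 8 samples without enzalutamide. SE was the log2 fold change divided by the square root of F. Likeness used log2(CPM + 0.5). The steps were tested on simulated data.

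The 10 genes and the lists of further genes were chosen with earlier results of these data known. Named genes were the 10, every listed gene past the threshold in an IR or enzalutamide comparison, the overlapping and nearest genes of PCNA and LIG1, the 5 genes most like each, and CDKN1A. RFC2, CHTF18, CHAF1A and POLA1 are named for a call with the block only.

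Replicate numbers shared between groups come from the labels. Same-numbered samples of batch 2 deviated together (r of 0.246 to 0.449 across 18686 genes over the 6 pairs of groups), so the blocked value is given where it changed a call. In batch 1 the single pair gave 0.335. No pair of libraries of a group agreed within sampling noise (chi-square per degree of freedom 2.98 to 30.0), and none was merged as a repeat. The t1 and t2 libraries of a replicate gave 6.76 and 15.3 in mock and 13.0 and 30.0 after IR. Libraries of the same kind from different replicates gave lower values, 6.27 and 2.98 in mock and 3.93 and 3.61 after IR. The SEs of batch 1 came from the summed replicates, so they do not measure the spread between t1 and t2. Alternatives were other scalings (RLE factors, total counts), no filter, DESeq2 1.42.0, the replicate block, leaving out each replicate, fitting only the groups compared, and t1 or t2 libraries alone.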

Additional observations from a re-analysis of the deposited data

Results flagged for a closer look

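Among the 4 mock libraries of batch 1, POLD2 stood apart in 1 library. It was at 44.9 CPM in the t1 library of replicate 2, against 56.8 to 57.8 CPM in the other 3. This was 1 of 20 sets of 4 libraries examined (10 genes in mock and irradiated libraries), and chance marks about 1 in 20 such sets. With t1 and t2 summed, POLD2 was at 57.0 and 50.01 CPM in the mock replicates, and whether that library moved the batch 1 value of -0.01 was not tested by leaving it out alone.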

How the results depend on the processing

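Of 767 values recomputed under alternatives, not counting the IR values of the 10 genes, 687 kept their direction and their side of the threshold or moved little, and 61 changed sign. The IR values of the 10 genes carry no test. Those of the 8 partners changed sign in 23 of 312 recomputed values, 16 of them in batch 1, where PCLAF ranged from -0.14 to 0.26, FEN1 from -0.28 to 0.38, POLD2 from -0.29 to 0.25 and POLD4 from -0.77 to 0.74. PCNA and LIG1 were higher after IR in every alternative run for the 3 IR comparisons, from 0.41 (PCNA, t2 libraries of batch 1) to 1.18 (LIG1, t2 libraries). With the replicate block, 6 of the 50 further genes passed in vehicle cells against 3 without it (4.59% and 1.1% of all genes), 1 against 0 for enzalutamide and 1 against 0 for the batch difference; the block changed no call of the 10 genes for enzalutamide, the interaction or the batch difference. With t1 libraries alone 11 of the 50 passed in batch 1 against 2 (17.3% of all genes), and with t2 alone 25, and 6 of the 10 genes against 2 (44.7% of all genes); nothing is read from the count of the 10. With t2 alone the batch difference passed for 1 of the 10 genes and 17 of the 50, against 0 and 0 (20.3% of all genes). The cause of these changes was not tested. RFC1 per length was 1.35 CPM per kb with total counts, against 1.34.

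Of the 61, those of the 10 genes did not pass the threshold under the main settings. The batch difference changed sign with RLE factors and with DESeq2 for LIG1 (-0.021 both times) and RFC1 (-0.019 both times), and with total counts for PCNA (0.030). With t1 libraries alone it was 0.29 for PCNA, -0.12 for LIG1, 0.23 for FEN1, 0.15 for POLD2, 0.62 for POLD4 and -0.26 for RFC1, and with t2 alone 0.060 for POLD1, 0.098 for POLD3 and 0.25 for DNA2. CDT1 in batch 1 was -0.25 with t2 alone. The interaction of POLD2 was 0.014 with total counts, and enzalutamide for PCLAF was -0.0017 without the filter and -0.0019 with the replicate block. Leaving out each replicate, the batch difference ranged from -0.30 to 0.29 (PCNA), -0.042 to 0.071 (LIG1), -0.22 to 0.043 (FEN1), -0.27 to 0.077 (POLD3), -0.31 to 0.0067 (POLD4) and -0.11 to 0.15 (RFC1). The enzalutamide average ranged from -0.089 to 0.035 (PCNA), -0.0067 to 0.12 (POLD3), -0.065 to 0.028 (RFC1), -0.041 to 0.055 (PCLAF) and -0.033 to 0.071 (DNA2). The interaction ranged from -0.18 to 0.085 (PCNA), -0.24 to 0.033 (FEN1), -0.17 to 0.015 (POLD1), -0.083 to 0.075 (POLD2), -0.16 to 0.13 (POLD3), -0.084 to 0.21 (POLD4), -0.14 to 0.066 (RFC1) and -0.12 to 0.11 (DNA2).

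With 2 samples per group, the widest interval among the 10 genes, that of POLD4, reached (log2, to either side) 0.24 for the enzalutamide average, 0.365 without IR, 0.372 with IR and 0.52 for the interaction. The levels per summed exon length were not run.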
